A study of Mus musculus with 2 samples.

Results

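Slc43a2 and Slc7a8, genes of amino acid transporters, each gave 1 circular RNA (circRNA) among the 1132 circRNAs listed for mouse small intestinal crypts. Such RNAs are covalently closed rings in which splicing links the 3′ end of an exon to the 5′ end of itself or of an exon before it. Reads that cross this link are called back-splice reads. Rows were taken where the gene name field held either symbol, and 2 rows were found. Both genes had been chosen by their back-splice reads in these same libraries, so their levels are given as a description and no test was run on them. RNA of wild-type samples titled as small intestine crypts was sequenced in 2 libraries (replicates 1 and 2) that form 1 group. Crypts are the epithelial pockets that house stem cells and their dividing offspring. The cell type entry names stem cells, so whether whole crypts or stem cells were used is not settled. No treatment, age or strain was given in the labels used here, and nothing there states whether different animals were used, so the spread between libraries may be technical.

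Slc43a2 encodes LAT4, a facilitative carrier of branched-chain amino acids, phenylalanine and methionine, and Slc7a8 encodes LAT2, an exchanger of neutral amino acids that works as a pair with the CD98 heavy chain (Slc3a2). In the small intestine both proteins are known from the basolateral membrane of epithelial cells, where LAT2 trades one amino acid for another and LAT4 lets essential amino acids leave towards the blood. Circular products of such genes consist of exons of the same precursor RNA as the transporter mRNA. Back-splice reads count the circle and say nothing of the level of that mRNA.

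The exons annotated between the ends of each circle are printed because they make up its sequence, on the assumption that no exon inside is skipped and no intron retained, since reads were counted at the back-splice alone. Sequences were read from GENCODE M21 transcripts (GRCm38, the same build as mm10), run 5′ to 3′ on the strand of the gene, and carry in capitals the 20 bases on each side that meet at the back-splice. The Slc43a2 circle lay on the plus strand at chr11:75543158-75545830 and the Slc7a8 circle on the minus strand at chr14:54758439-54759745.
Slc43a2 exon 3: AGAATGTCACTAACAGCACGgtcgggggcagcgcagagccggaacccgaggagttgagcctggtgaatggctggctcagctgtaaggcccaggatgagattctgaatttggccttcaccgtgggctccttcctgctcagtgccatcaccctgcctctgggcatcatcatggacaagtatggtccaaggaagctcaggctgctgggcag
Slc43a2 exon 4: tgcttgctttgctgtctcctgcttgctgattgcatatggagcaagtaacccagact
Slc43a2 exon 5: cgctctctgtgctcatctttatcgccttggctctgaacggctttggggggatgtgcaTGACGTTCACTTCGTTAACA
Slc7a8 exon 2: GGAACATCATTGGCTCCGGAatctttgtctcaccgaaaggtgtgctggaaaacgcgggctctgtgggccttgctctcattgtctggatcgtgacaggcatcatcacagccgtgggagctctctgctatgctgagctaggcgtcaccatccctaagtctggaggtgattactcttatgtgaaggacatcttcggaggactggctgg
Slc7a8 exon 3: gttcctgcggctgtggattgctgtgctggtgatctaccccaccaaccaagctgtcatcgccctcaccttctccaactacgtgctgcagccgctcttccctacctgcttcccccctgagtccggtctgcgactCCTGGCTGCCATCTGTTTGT

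The sequence that tells each circle from its mRNA is the join itself, shown here as 40 bases with the end of the last exon in lower case and the start of the first exon in capitals.
Slc43a2 back-splice junction: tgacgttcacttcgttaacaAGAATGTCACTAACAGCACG
Slc7a8 back-splice junction: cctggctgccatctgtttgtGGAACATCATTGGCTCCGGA
Neither 40-base junction occurred in any of 141767 annotated transcripts, read on the strand of the transcript. The 20 bases on either side of each join occurred in transcripts of 1 gene only, which was Slc43a2 for the first join and Slc7a8 for the other.

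Slc43a2 (ENSMUSG00000038178) was read 75 times across its back-splice in replicate 1 and 47 times in replicate 2. Scaled to the back-splice reads listed for each library (CPM), this was 21151 CPM in replicate 1 and 10583 CPM in replicate 2, with a mean of 15867 ± 7472 CPM (SD, n = 2). Replicate 1 was the higher of the libraries, and the circle ranked 2 in replicate 1, 9 in replicate 2 and 5 by mean level. Its share of the listed reads was 2.12% in replicate 1 (exact 95% binomial interval by Clopper-Pearson, 1.67 to 2.64%), against 1.06% in replicate 2 (0.779 to 1.40%). These intervals allow for counting error alone, since without molecular identifiers several reads may stem from 1 molecule. The CPM values deposited by the authors, which carry another scaling, were 20404 and 10970.

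Slc7a8 (ENSMUSG00000022180) had 18 and 23 back-splice reads in replicates 1 and 2, which is 5076 and 5179 CPM. The mean was 5128 ± 72.7 CPM (SD, n = 2), and the libraries lay close together. The circle ranked 24 in replicate 1, 23 in replicate 2 and 23 by mean level, a place it shared with a circRNA of Lrch3. Its share of the listed reads was 0.508% in replicate 1 (interval 0.301 to 0.801%) and 0.518% in replicate 2 (0.329 to 0.776%). The counting interval of either library is far wider than the SD between them, so the small SD is no measure of precision. The authors' deposited CPM values were 4897 and 5368. In RNA pooled from many cells, fewer cells of a type and less RNA per cell cannot be told apart, for these circles as for any other RNA.

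**Figure D1:**
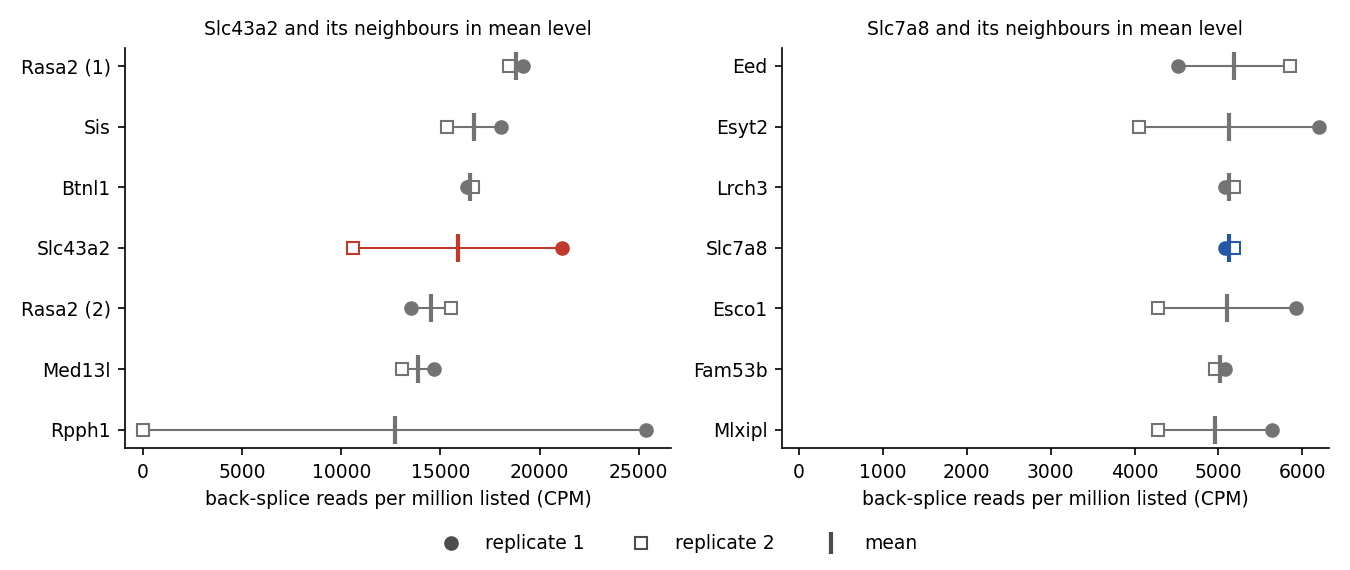
Level of Slc43a2 (left, red) and Slc7a8 (right, blue) with the 3 circRNAs above and the 3 below each in the order of mean level, as CPM of listed back-splice reads. Filled circles are replicate 1, open squares replicate 2 and ticks the mean, and Slc43a2 spans 10583 to 21151 CPM while both Slc7a8 points sit between 5076 and 5179 CPM.

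Slc43a2 gave more reads than Slc7a8 in both libraries. The ratio of Slc43a2 over Slc7a8 reads was 4.17 in replicate 1 (95% interval from the exact binomial split 2.47 to 7.41) and 2.04 in replicate 2 (1.22 to 3.53). Over both libraries the counts were 122 and 41, and since these reads chose the genes nothing is read from the ratio or its interval. A back-splice count belongs to 1 junction, and divided by spliced length the levels were 62025 and 31036 CPM per kilobase for Slc43a2 and 14219 and 14507 CPM per kilobase for Slc7a8. On that scale Slc43a2 ranked 5 and Slc7a8 ranked 28 of the 1008 circRNAs with both ends at splice sites of 1 transcript. By undivided mean level Slc43a2 ranked 5 and Slc7a8 ranked 21 of the same 1008. Since a circle has 1 back-splice whatever its length, the division does not correct the counts for length. Together the circles took 2.62% of the reads in replicate 1 (2.12 to 3.20%) and 1.58% in replicate 2 (1.23 to 1.99%).

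The libraries lay further apart in Slc43a2 than in Slc7a8. The CPM of Slc43a2 in replicate 1 was 2.00 times that in replicate 2 (counting interval 1.37 to 2.94), a log2 ratio of 1.00, and that of Slc7a8 was 0.980 times (0.498 to 1.90), a log2 ratio of -0.03. Among 167 circRNAs read in both libraries with at least 10 reads in all, 22.2% were at least 1.5-fold higher in replicate 1 and 24.6% were at least 1.5-fold higher in replicate 2. Slc43a2 was in the first of these classes and Slc7a8 in neither, and since these reads chose the genes nothing is read from that count. Larger ratios in either direction than that of Slc43a2 were seen for 37 of the 167 circRNAs, all of them with fewer than 41 reads. Of 22 circRNAs with at least 41 reads, the depth of Slc7a8, 20 were read in both libraries, the transporter circles among them. None of these 20 had a larger ratio than Slc43a2, and the median size of the log2 ratio was 0.22. The rest lacked listed reads in a library and so have no ratio here. Since these reads chose the genes, nothing is read from the place of Slc43a2.

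**Figure D2:**
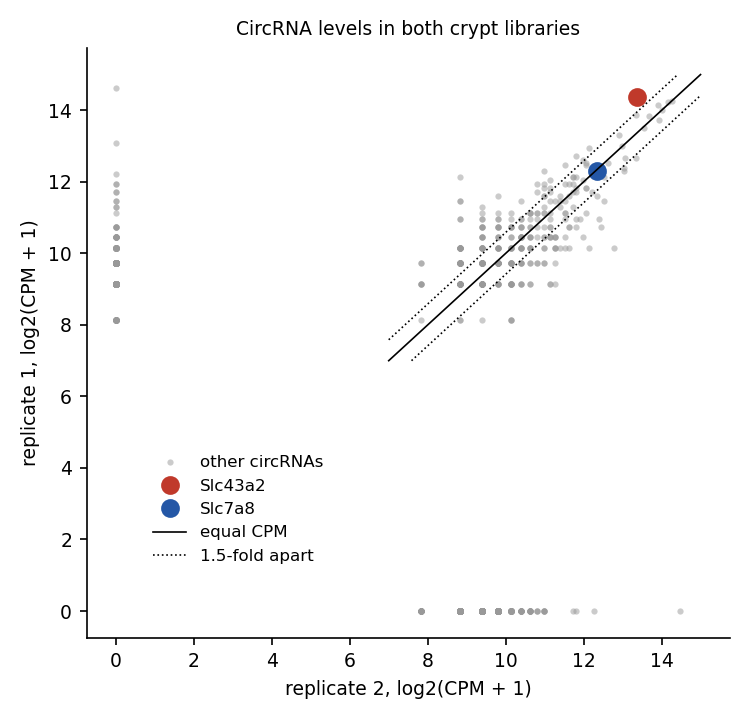
Level of each of 1132 circRNAs in replicate 2 (horizontal axis) and replicate 1 (vertical axis), as log2(CPM + 1), with circRNAs listed at 0 in a library along the value 0. Slc43a2 lies above the dotted line of 1.5-fold and Slc7a8 on the solid line of equal CPM.

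The order of levels around Slc43a2 was not resolved by the libraries. A circRNA of Rasa2, a GTPase-activating protein gene, stood above it at 18820 ± 504 CPM, then Sis, the gene of sucrase-isomaltase, at 16680 ± 1935 CPM and Btnl1, a butyrophilin-like gene, at 16510 ± 217 CPM. Below it came another Rasa2 circle at 14537 ± 1415 CPM, Med13l, a Mediator subunit gene, at 13862 ± 1134 CPM and Rpph1, the RNase P RNA gene, with 90 reads in replicate 1 and 0 listed in replicate 2. Each of these 6 means differed from that of Slc43a2 by less than the larger SD of the pair. Of the 330 circRNAs read in both libraries, 8 others had a range of CPM that overlapped that of Slc43a2.

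Around Slc7a8 the levels were closer still. Eed, a Polycomb subunit gene, had 5183 ± 949 CPM, Esyt2, a membrane tether gene, had 5129 ± 1521 CPM, and Lrch3 had the same counts as Slc7a8. Below it were Esco1, a cohesin acetyltransferase gene, at 5100.2 ± 1162 CPM, a circRNA listed for Fgfr2 and Fam53b at 5015 ± 86.5 CPM, and Mlxipl, which encodes a glucose-responsive transcription factor, at 4959 ± 963 CPM. Of these, the mean of the Fgfr2 and Fam53b row differed from that of Slc7a8 by 113 CPM, more than either SD, though a single read was worth 282 or 225 CPM. For 16 other circRNAs read in both libraries the range of CPM overlapped that of Slc7a8.

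The circRNAs most like each transporter circle were found by distance in log2(CPM + 1) over the 2 libraries, a measure with only 2 points. For Slc43a2 they were Fam160b1 (distance 0.50), Sis (0.58), Med13l (0.61), Btnl1 (0.75) and Rasa2 (0.82). Fam160b1 had 53 and 46 reads in replicates 1 and 2. These 5 were picked by their levels in both libraries, so nothing is read from which library was the higher. For Slc7a8 the nearest were Lrch3 (0), the Fgfr2 and Fam53b row (0.06), Eed (0.25), Mlxipl (0.31) and Esco1 (0.35). Most of these are also neighbours in mean level, and counts of this size take few values.

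Both circles held early exons of their genes. The Slc43a2 circle joined exon 5 back to exon 3 of 14 exons, and the Slc7a8 circle joined exon 3 back to exon 2 of 11. Spliced, they measured 341 and 357 bases, against a median of 368 bases over the 1008 circRNAs at splice sites. The genomic spans were short, 2673 bases for Slc43a2 and 1307 bases for Slc7a8, and 33.3% and 19.1% of the 1008 spanned as little or less. A start at exon 2, as in Slc7a8, was found for 36.4% of the 1008 and a start at exon 3, as in Slc43a2, for 13.9%.

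**Figure D3:**
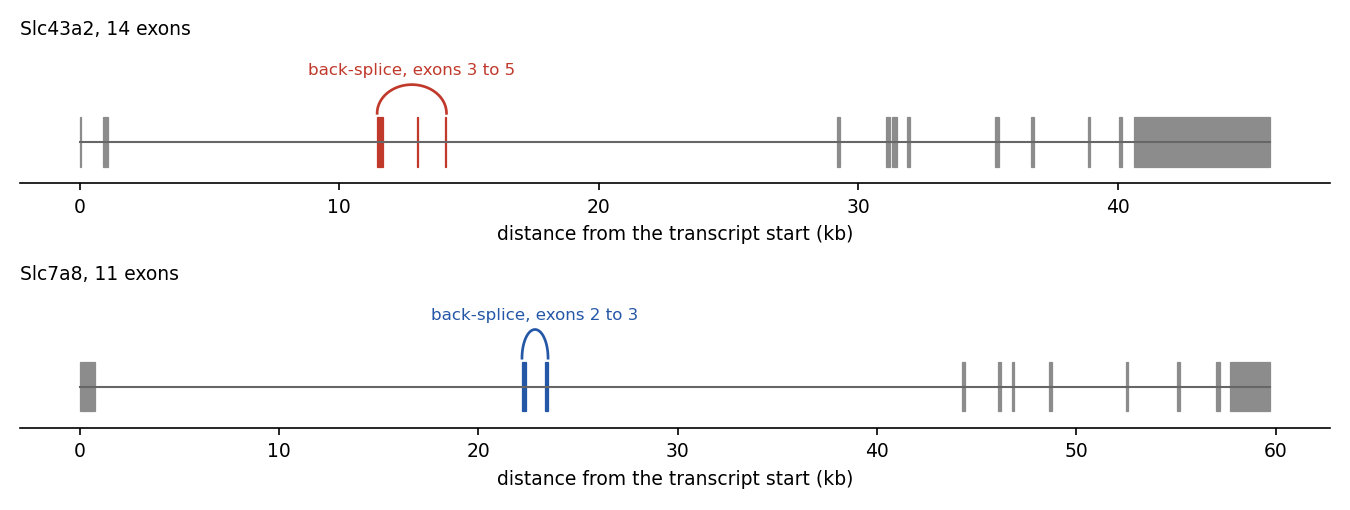
Exons (boxes) and introns (line) of Slc43a2 (top) and Slc7a8 (bottom) to scale, by distance from the transcript start in kilobases. The exons in the circle are coloured, and an arc marks the back-splice, which covers exons 3 to 5 of Slc43a2 and exons 2 to 3 of Slc7a8.

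In both genes the circle sat between the 2 longest introns. Intron 2 of Slc43a2, before the circle, had 10369 bases and intron 5, after it, had 15068 bases, whereas the longest of its other introns had 3270 bases. In Slc7a8, intron 1 before the circle had 21434 bases and intron 3 after it had 20773 bases, against 3750 bases for the longest of the others. The pairs of flanking introns held 65.2% of the intron bases of Slc43a2 and 75.9% of those of Slc7a8, while the introns inside the circles summed to 2332 and 950 bases. Set against all circRNAs, the introns themselves were not extreme: the mean of the flanking pair was at or below that of Slc43a2 in 53.0% and of Slc7a8 in 73.5% of the 1008.

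A circle between the 2 longest introns of its transcript was found for 216 of 1004 circRNAs whose transcripts had at least 3 introns (21.5%, interval 19.0 to 24.2%). In transcripts of 11 to 14 exons, the range of the transporter genes, it was 43 of 210 (20.5%, 15.2 to 26.6%). It was 46 of 164 (28.0%, 21.3 to 35.6%) with at least 10 reads and 12 of 25 (48.0%, 27.8 to 68.7%) for the 25 highest at splice sites. Both sets include Slc43a2 and Slc7a8, which were chosen by their reads. The intervals treat circRNAs as independent, though circRNAs of the same host can share introns and the sets overlap, so they may be too narrow. This layout was noticed in the data and is given as a description.

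**Figure D4:**
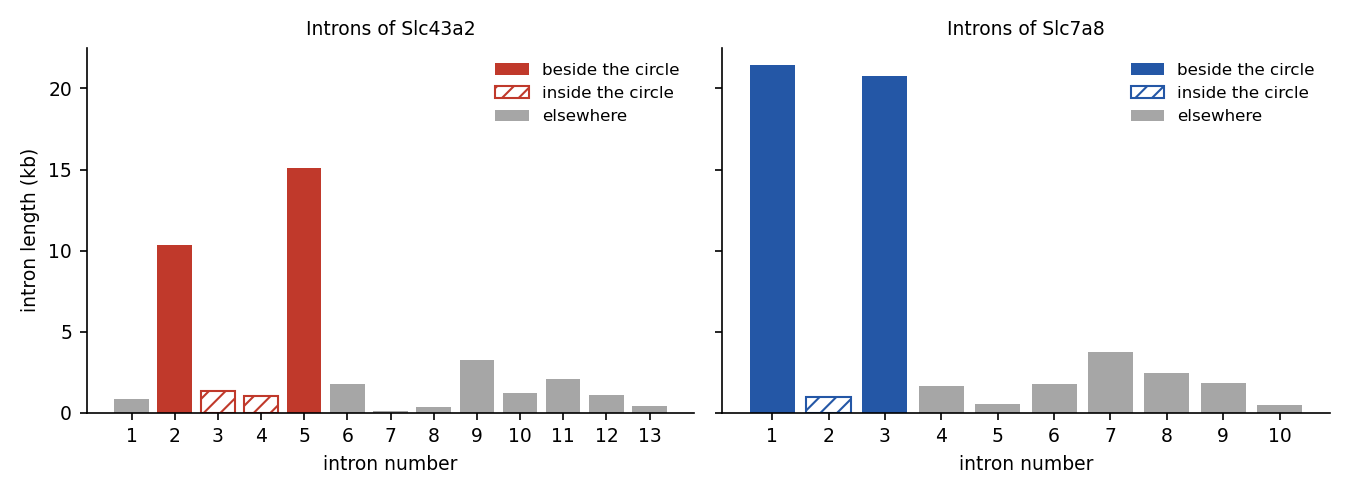
Length in kilobases of each intron of Slc43a2 (left) and Slc7a8 (right) in order along the gene. Filled coloured bars are the introns beside the circle, hatched bars those inside it and grey bars the rest, and in both genes the filled bars are the tallest.

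**Figure D5:**
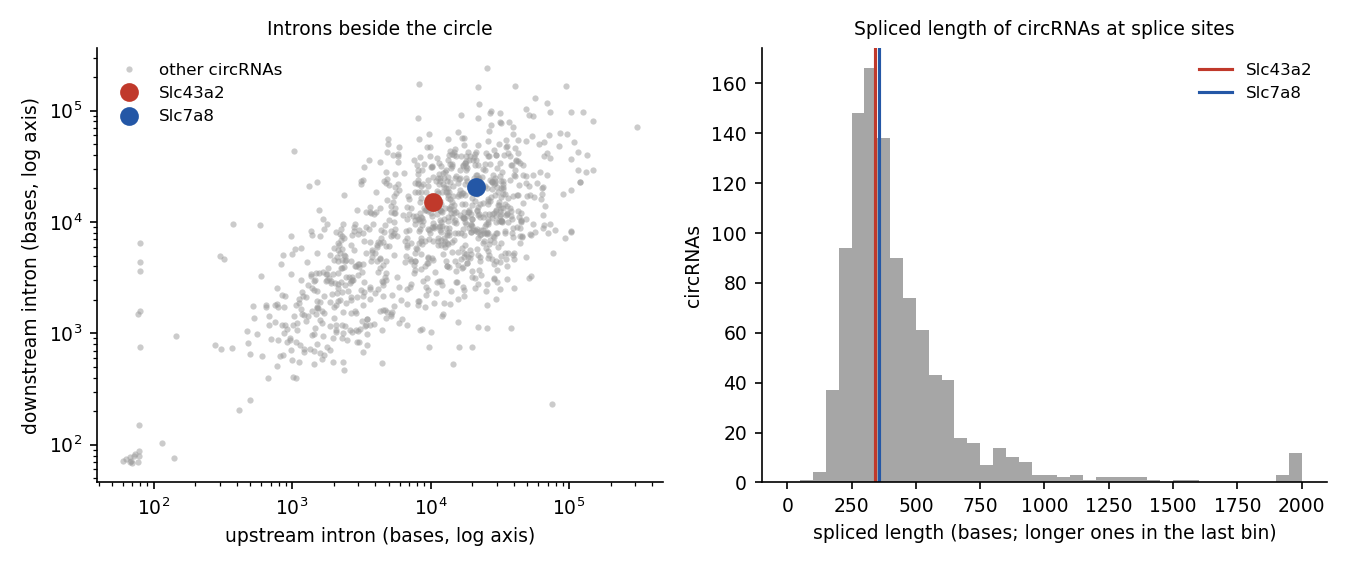
Left, length of the upstream against the downstream intron of 1008 circRNAs at splice sites, on log axes, and right, a histogram of their spliced length in bases. Slc43a2 and Slc7a8 lie within the main cloud of intron lengths and near the median spliced length of 368 bases.

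Slc43a2 and Slc7a8 had 1 circle each. The transcripts allow 78 different exon pairs that could close a circle in Slc43a2 and 45 in Slc7a8, and 0 other listed circRNAs overlapped either gene. Of 30 host genes with at least 41 reads over their circRNAs, 9 had a single circRNA, and the median was 2. Over all 824 hosts, most of which had few reads, 626 (76.0%) had a single circRNA. Both circles matched more than 1 annotated transcript, 3 of 11 for Slc43a2 and 2 of 2 for Slc7a8, all with the same exons in the circle.

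Both circles were wholly coding, as were 822 of the 1008 (81.5%). The circles cover codons 54 to 167 of 568 in Slc43a2 and codons 50 to 169 of 531 in Slc7a8, counting codons cut by an end. These stretches are 20.01% and 22.4% of the coding sequence. Neither holds the annotated start codon. Each begins at the second base of a codon, which was so for 268 of the 822 wholly coding circles (32.6%). GC content was 55.4% in Slc43a2 and 56.6% in Slc7a8, against a median of 48.8%, and 84.0% and 88.4% of the 1008 were at or below these values.

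The circles differ in reading frame. The 357 bases of Slc7a8 are a multiple of 3, so the frame of the transporter runs on across the back-splice, and it meets no stop codon on any turn. It also holds 0 ATG triplets in that frame and 2 in the others. A length that is a multiple of 3 was found for 282 of the 822 wholly coding circles, and 281 of these had no stop in the host frame. Apart from a codon formed at the back-splice, their codons are those of the coding sequence, so few stops are met by construction. Of those 281, 32 (11.4%) had no ATG in that frame, as in Slc7a8. In the 341 bases of Slc43a2, which leave a remainder of 2, the host frame held 3 ATG triplets and shifted at the back-splice. The longest frame that opens with ATG in this circle had 76 codons, starting at codon 110 of LAT4, and is printed below because it crosses the back-splice. It read 58 codons up to the join and 18 codons beyond it before a stop at bases 55 to 57 of the circle, with ATG and the stop in capitals.
Slc43a2 frame across the back-splice: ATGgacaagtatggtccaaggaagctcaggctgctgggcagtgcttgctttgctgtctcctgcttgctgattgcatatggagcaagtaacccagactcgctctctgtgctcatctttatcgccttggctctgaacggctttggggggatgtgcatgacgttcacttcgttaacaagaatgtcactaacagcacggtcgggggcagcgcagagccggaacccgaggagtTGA
The median longest ATG frame over the 1008 circles was 119 codons within the turns read. Whether any circle is translated was not measured.

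Of 61 amino acid transporter genes of the plasma membrane and lysosome, 4 were hosts (6.56%), Slc43a2 and Slc7a8 among them. Without that pair, which was chosen by its reads, 2 of 59 were hosts (3.39%), near the 817 of 20594 other multi-exon protein-coding genes (3.97%). The first of these was Slc38a10, a gene of the sodium-coupled amino acid transporter family, with 2 reads in replicate 1 and 0 listed in replicate 2 (exons 7 to 8, chr11:120132677-120134882). The other was Slc3a1, which encodes the heavy chain of the cystine and dibasic amino acid exchanger, with 2 and 0 reads of a row typed as intronic. Slc3a2, Slc7a5, Slc43a1, Slc43a3, Slc16a10 and Slc6a19, the partner, paralogs and further intestinal carriers in that list, were not listed. Slc43a3 is a paralog of Slc43a2, and no amino acid substrate is claimed for it here. Slc38a10 and Slc3a1 both had a mean level of 282 CPM, and the median over all hosts was 507 CPM.

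In the pathway that senses amino acids through mTORC1 and GCN2, 4 of 44 genes were hosts (9.09%), with a median level of 704 CPM. Only 2 of these 4 were read in both libraries. For comparison, 819 of 20596 multi-exon protein-coding genes were hosts (3.98%), and the median over all hosts was 507 CPM. Lists with so few hosts are given as a description, and no test was run on them. Rptor, the gene of the mTORC1 scaffold protein, had 2 reads in each library. Rps6kb1, an mTORC1 substrate kinase gene, had 0 listed and 8 reads in replicates 1 and 2, and Rragc, a Rag GTPase gene, 0 listed and 3. Among 25 genes that break down branched-chain amino acids, substrates of LAT4, 2 were hosts (8%). Hibadh, a dehydrogenase gene of valine breakdown, had 15 and 18 reads, or 4142 ± 125 CPM, and ranked 31, whereas Bckdhb had 2 and 0 reads of an intronic row. The levels of these named genes lay below those of Slc43a2 and Slc7a8 in both libraries. Since these reads chose that pair, nothing is read from this order.

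Among solute carrier (Slc) genes of any substrate, counted after the values were seen, 20 of 368 were hosts (5.43%), and 18 of 366 (4.92%) without the chosen pair. For multi-exon protein-coding genes without that pair it was 817 of 20594 (3.97%). Slc43a2 and Slc7a8 had the highest mean levels of the 20 and held 59.7% of their reads. Since these reads chose the pair, nothing is read from that place or share. Slc12a8 came next with 13 and 18 reads over 5 circRNAs, and Slc5a1, the sodium-glucose cotransporter gene of the brush border, had 3 and 5 reads.

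The libraries are small and share few circRNAs. Replicate 1 held 3546 listed back-splice reads over 695 circRNAs and replicate 2 held 4441 over 767, and 330 circRNAs (29.2%) were in both. The sample titles name crypts and the cell type entry names stem cells. Of 15 stem cell marker genes 0 were hosts, as were 0 of 9 Paneth cell markers, 0 of 11 enteroendocrine and tuft cell markers and 0 of 12 markers of stroma, muscle, endothelium and glia. Over all multi-exon protein-coding genes 819 of 20596 were hosts (3.98%), so 0 hosts in lists this short says little about the cells. Hosts were found for 9 of 17 markers of absorptive enterocytes, 3 of 8 of goblet cells and 3 of 11 of immune cells, led by Sis at 16680 ± 1935 CPM. A circRNA at splice sites was listed for 4 of the 9 enterocyte hosts, 0 of the 3 goblet hosts and 3 of the 3 immune hosts. Read in both libraries were 5 of the 9 enterocyte hosts, 0 of the 3 goblet hosts and 1 of the 3 immune hosts. The rows of Apoa1 and Apob among the enterocyte hosts and of Muc2 and Fcgbp among the goblet hosts were typed as antisense, with 1 to 3 reads in replicate 1 and 0 listed in replicate 2. Being a host depends on back-splicing and not only on expression, so these counts do not settle the label, and their part in the levels of Slc43a2 and Slc7a8 was not tested.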

How the data were processed

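Total RNA of small intestinal crypts of wild-type mice was sequenced in 2 libraries, which formed 1 group. The deposited table gave raw counts of back-splice reads per circRNA and library, and a CPM signal that the authors derived from them, per the file headers: each count times 272 in replicate 1 or 233 in replicate 2, so that the columns summed to 964714 and 1036580. TMM factors of edgeR 4.0.16 gave the same constants. The genome build named in the submitters' processing notes was mm10. Not given in the sources used here are the tools that aligned reads and called circRNAs, and any filters. Columns were matched to samples by title, and 0 were left unused.

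Levels here are CPM of the listed reads, so 1 read was worth 282 and 225 CPM. The listed total is not the sequencing depth, and a listed 0 may hide reads below a minimum, so no fold is given against it. Intervals are Clopper-Pearson at 95% (scipy 1.17.1). Only those of the ratio between libraries were checked on simulated counts, which held counting error alone. A circRNA was placed at splice sites when, in 1 transcript, its start opened any but the leftmost exon and its end closed any but the rightmost exon, using named genes in GENCODE M21 and preferring protein-coding, basic and longest coding transcripts. Sequences came from the same release. Genome sequence was not used here. Frames were read round the circle, once where the length was a multiple of 3 and otherwise 3 times.

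The members and gene lists were chosen with earlier results of these data known. Named are all circRNAs of both genes, every host of the transporter, sensing and breakdown lists, the 3 neighbours on either side in mean level and the 5 nearest patterns. Some genes that this rule selects are left out and not reported here. Alternative scalings (the authors' CPM, TMM, DESeq2 1.42.0), filters and single libraries were tried. No test between groups was possible. Of the listed symbols 3 were matched through RefSeq synonyms and Samtor was not matched.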

Additional observations from a re-analysis of the deposited data

How the results depend on the processing

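The log2 ratio between libraries stayed between 0.88 and 1.06 for Slc43a2 and between -0.15 and 0.03 for Slc7a8 over 6 alternatives of scaling and filter. The ratio of the Slc43a2 over the Slc7a8 level was 2.04 without replicate 1 and 4.17 without replicate 2, and between these values under 7 others. Slc43a2 ranked 5 under every scaling and filter, 9 without replicate 1 and 2 without replicate 2, with a mean of 10583 and 21151 CPM in those single libraries. Slc7a8 ranked 21 with the authors' CPM, TMM factors, DESeq2 size factors or circRNAs at splice sites alone, 20 among circRNAs read in both libraries and 23 to 24 without 1 replicate. Its mean was 5648 CPM with circRNAs at splice sites alone, 6713 CPM with those of at least 5 reads and 7599 CPM with those read in both libraries, where Slc43a2 had 23389 CPM. Those filters shrink the total by construction. Transporter hosts numbered 2 and sensing hosts 2, against 4 and 4, both with at least 5 reads and with circRNAs read in both libraries, and each from 2 to 4 without 1 replicate. The choice of transcript left spliced lengths at 341 and 357 bases. With 18 to 75 reads a circle, counting error limits every level. No paired analysis was possible because the series has 1 group.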
